A study of Mus musculus with 4 samples.

Results

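Endothelial cells line blood vessels and are recognised by a small set of surface receptors, adhesion molecules and secreted proteins. Kdr (VEGF receptor 2), Tek (the angiopoietin receptor TIE2) and Tie1 are receptor tyrosine kinases of the vessel wall, and Eng (endoglin) is a co-receptor for ligands of the TGF-β family. Cd34 and Emcn (endomucin) are sialomucins of the cell surface, Pecam1 (CD31) joins endothelial cells at their borders, and Myct1 is a small membrane protein of endothelial and blood-forming cells. Selp (P-selectin) and Vwf (von Willebrand factor) are stored together in the granules of endothelial cells and platelets and act in leukocyte capture and clotting. These 10 genes were chosen by name, from the 27962 different gene names on the array, and every one of their 16 probes is described here.

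Their mRNA was measured in mouse embryo fibroblasts (MEFs) of the C57BL/6 strain, STMN1-/- and STMN1+/+. STMN1 encodes stathmin, a microtubule-destabilizing protein, and the mutant allele carries a neomycin cassette in every cell from conception, not in a chosen cell type. The lines came from individual mid-gestation embryos and were grown in the same medium, and the study's methods state that array and qRT-PCR used the same RNA, with qRT-PCR run on several lines of each genotype. Which lines each array holds is not given in the sources used here. RNA of both genotypes was hybridised together on 4 Agilent 2-color arrays of 60-mer probes, with STMN1-/- RNA in Cy3 on arrays 1 and 2 and in Cy5 on arrays 3 and 4. The labels do not say that the arrays hold RNA of separate cultures, so p-values measure the spread between these arrays, which may be technical.

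Per array, 24448 to 25339 probes exceeded background clearly with STMN1-/- RNA and 24771 to 25620 with STMN1+/+ RNA, and no spot was saturated. The 2 Stmn1 probes read lower in STMN1-/- MEFs, with log2 ratios of -2.16 ± 0.06 and -0.39 ± 0.07 (SE, limma, 4 arrays), as the dye labels require. The study describes its Stmn1 60-mer as flawed, with a match on another chromosome, and whether either probe lies in the disrupted segment is not given in the sources used here, so this check of the labels is a weak one. Fibroblast markers were measured in both genotypes, and all 12 of those listed were well above background on every array.

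The endothelial genes did not move together. In STMN1-/- MEFs Cd34, Kdr and Selp were down-regulated, Vwf and Emcn were up-regulated, and Myct1 was called lower with a signal measured in STMN1+/+ MEFs only. For Selp the study gives the opposite direction. Eng and Tek did not pass the test, and neither Pecam1 nor Tie1 was well above background on any array. A probe counted as well above background where most of its usable spots exceeded the local background by the margin of the feature extraction program. Of the 16 probes, 10 were above it in at least 1 genotype on at least 1 array and were tested, and 6 were not. Of the 10, 3 were higher and 5 lower at an adjusted p under 0.05 (limma, Benjamini-Hochberg over 27579 tested probes). Of these 8 called probes, 5 were measured in both genotypes (2 higher and 3 lower). The other 3, of Myct1, Selp and Vwf, entered the test only through the genotype in which they were high. Such entry favours a difference, so their calls are no independent support. Over all tested probes 22.5% were called, 11.3% higher and 11.2% lower. The median log2 ratio of the 8 tested member genes was -0.49, taking the brightest tested probe of each, against 0.00 for all tested probes, and was also -0.49 with Myct1 at the bound of its fold. In bulk RNA, fewer cells of a type and less RNA per cell cannot be told apart. With another background correction (normexp with loess), 8 of the 8 called probes kept their direction and 1, that of Cd34, kept its call.

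**Figure D1:**
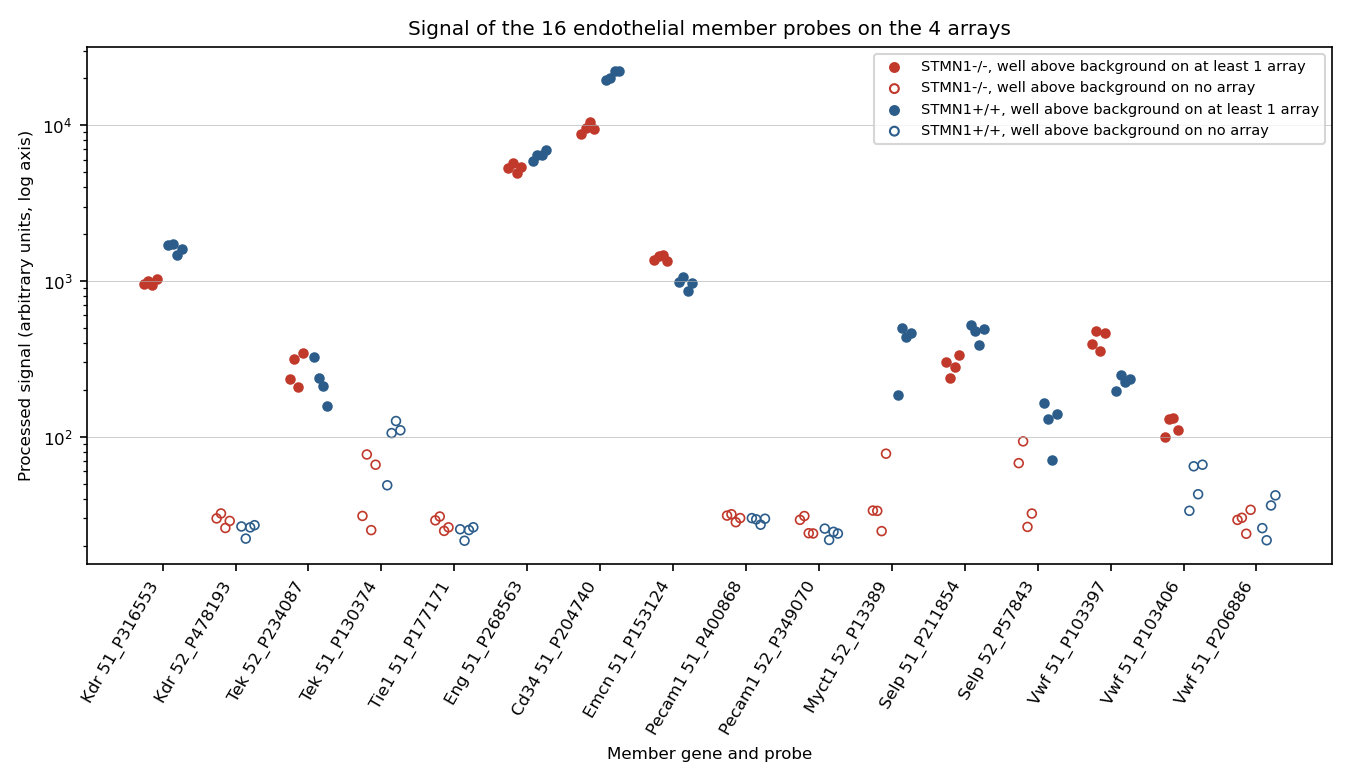
Processed signal (arbitrary units, log axis) of each member probe on the 4 arrays, left to right, with STMN1-/- in red to the left of STMN1+/+ in blue. Open points mark a genotype in which the probe was well above background on no array, as for both Pecam1 probes and the Tie1 probe, and signals of different probes are not comparable with each other.

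**Figure D2:**
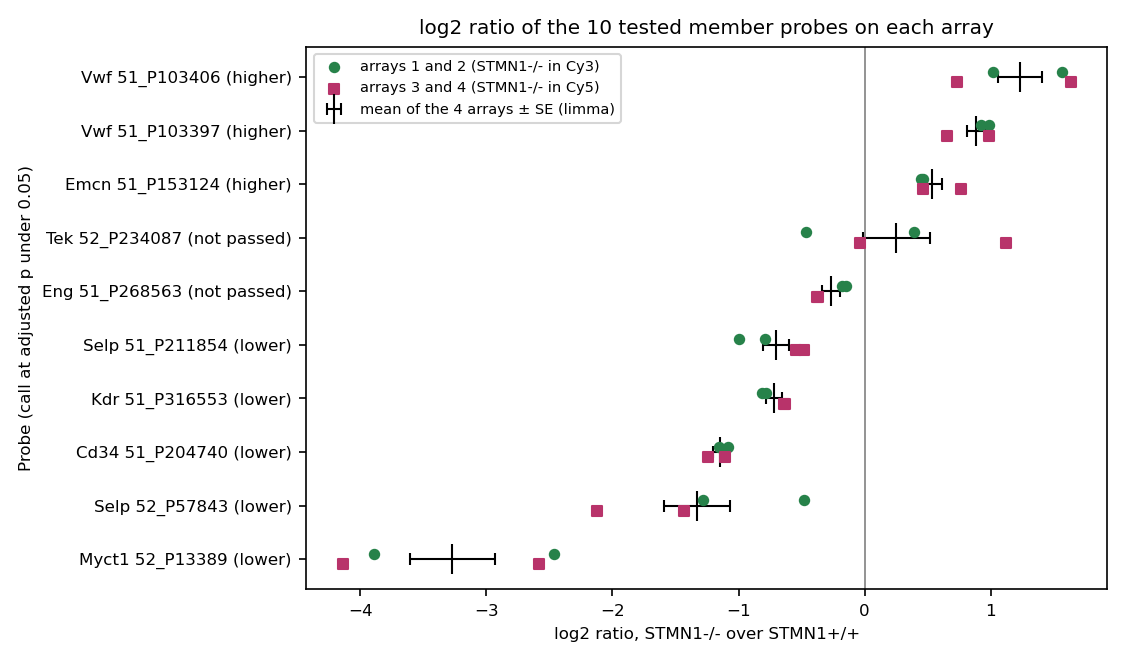
The log2 ratio of STMN1-/- over STMN1+/+ on each array for the 10 tested member probes, with circles for STMN1-/- in Cy3 and squares for STMN1-/- in Cy5, and the mean ± SE of limma in black. Only Tek has points on both sides of 0.

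Among the receptors, Kdr binds VEGF-A and carries most of its signal for endothelial growth. Its brighter probe (A_51_P316553, NM_010612, chromosome 5, 75351537 to 75351596 of build mm7, minus strand) is printed in 10 spots on each array. It read 961, 1005, 941 and 1027 in STMN1-/- MEFs on arrays 1 to 4, against 1691, 1727, 1461 and 1598 in STMN1+/+ MEFs. The genotypes did not overlap, as was true of 21.4% of all tested probes. The log2 ratio was -0.72 ± 0.06 (SE, limma, 4 arrays, adjusted p = 0.00284), 1.64-fold lower in STMN1-/- MEFs.

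The repeated spots show the precision of a single array. All 40 Kdr spots were well above background in both genotypes and all 40 were lower in STMN1-/- MEFs. Over the 10 spots of an array the SD of the log2 ratio was 0.07 to 0.13, and the SD between the 4 array means was 0.09. The arrays with STMN1-/- RNA in Cy3 averaged -0.80 and those with it in Cy5 averaged -0.64, so the ratio was lower in both orientations.

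A second Kdr probe (A_52_P478193, AK054510, a cDNA clone, chromosome 5, 75382167 to 75382226 of mm7) lies 30.6 kb from the first. It was at background throughout, at 26.0 to 32.2 in STMN1-/- MEFs and 22.2 to 27.1 in STMN1+/+ MEFs, with 0 of its 36 usable spots well above background. A single spot on array 1, left out as an outlier, read 216 in STMN1-/- MEFs and 197 in STMN1+/+ MEFs.

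Tek, the receptor for angiopoietins, had 2 probes on chromosome 4, the chromosome of Stmn1. The probe to its RefSeq transcript (A_51_P130374, NM_013690, 94266776 to 94266835 of mm7) was not well above background in either genotype. It read 31.1, 77.0, 25.2 and 66.2 in STMN1-/- MEFs, against 48.9, 106, 126 and 110 in STMN1+/+ MEFs, and no ratio can be given. Its other probe (A_52_P234087, AK053336, a cDNA clone) lies 132 kb away, at 94134402 to 94134461, and was above background in both genotypes on 4 arrays. It read 234, 314, 207 and 343 in STMN1-/- MEFs, against 324, 239, 212 and 158 in STMN1+/+ MEFs. These overlapped, and the log2 ratio of 0.25 ± 0.26 (SE, limma, 4 arrays) did not pass (adjusted p = 0.539). It was higher in STMN1-/- MEFs on 2 arrays and lower on 2.

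Tie1 is the relative of Tek that has no well-defined ligand of its own and modulates Tek signalling. Its single probe (A_51_P177171, NM_011587, chromosome 4, 117847966 to 117848025 of mm7, minus strand) read 24.9 to 30.8 in STMN1-/- MEFs and 21.5 to 26.3 in STMN1+/+ MEFs. No array was well above background in either genotype. Its sequence is shown, with that of the RefSeq probe of Pecam1, because both classical markers rest on these oligonucleotides (5′ to 3′, as printed on the array, with no letters in capitals).
Tie1 A_51_P177171: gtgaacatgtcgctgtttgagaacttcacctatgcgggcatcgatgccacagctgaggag
Pecam1 A_51_P400868: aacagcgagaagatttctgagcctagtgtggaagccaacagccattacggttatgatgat

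Eng, the co-receptor that endothelial cells use for BMP9 and TGF-β, was bright in both genotypes. Its probe (A_51_P268563, NM_007932, chromosome 2, 32689101 to 32689160 of mm7) read 5327, 5669, 4956 and 5368 in STMN1-/- MEFs, against 5895, 6419, 6439 and 6934 in STMN1+/+ MEFs. The genotypes did not overlap, as in 21.4% of all tested probes, and the ratio was below 0 on 4 of 4 arrays. The log2 ratio of -0.27 ± 0.07 (SE, limma, 4 arrays) had an adjusted p of 0.0501 and did not pass. The ratio was -0.16 on average with STMN1-/- RNA in Cy3 and -0.37 with it in Cy5. With the dye effect fitted as a second coefficient the adjusted p was 0.0113, and over all alternatives with 4 arrays it ran between 0.0113 and 0.112.

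Of the surface sialomucins, Cd34 marks endothelial and blood-forming progenitors and also some fibroblasts. Its ratio was the most even of the called member probes from array to array (SD 0.07). The probe (A_51_P204740, NM_133654, chromosome 1, 194515494 to 194515553 of mm7) read 8775, 9508, 10402 and 9373 in STMN1-/- MEFs, against 19565, 20166, 22388 and 22204 in STMN1+/+ MEFs. The highest STMN1-/- value lay well under the lowest STMN1+/+ value, and 21.4% of all tested probes likewise had no overlap between genotypes. The log2 ratio was -1.15 ± 0.06 (SE, limma, 4 arrays, adjusted p = 0.000826), 2.22-fold lower in STMN1-/- MEFs, with -1.12 in the Cy3 orientation and -1.18 in the Cy5 orientation.

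Emcn, the other sialomucin, is known from capillaries and veins and limits adhesion of leukocytes. It moved the other way. Its probe (A_51_P153124, NM_016885, chromosome 3, 137226821 to 137226880 of mm7) read 1363, 1454, 1471 and 1335 in STMN1-/- MEFs, against 988, 1064, 868 and 967 in STMN1+/+ MEFs. The genotypes did not overlap, as in 21.4% of all tested probes. The log2 ratio was 0.54 ± 0.08 (SE, limma, 4 arrays, adjusted p = 0.0106), 1.45-fold higher in STMN1-/- MEFs, and array 3 stood apart at 0.76 beside 0.45 to 0.47 on the other arrays.

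Pecam1, the junctional adhesion molecule by which endothelial cells are most often identified, was at background. The probe shown above (NM_008816, chromosome 11, minus strand, 60 bases that span 1854 bases of mm7 from 106790116 to 106791969) is printed in 10 spots per array. It averaged 28.3 to 31.9 in STMN1-/- MEFs and 27.3 to 30.1 in STMN1+/+ MEFs, and 0 of its 38 usable spots were well above background in either genotype. The second probe (A_52_P349070, AK031380, 0.669 kb away) read 24.0 to 31.0 in STMN1-/- MEFs and 21.8 to 25.8 in STMN1+/+ MEFs. A difference between genotypes was not detectable at these signals.

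Myct1 had the largest measured ratio with the processed signals, though not with normexp. Its probe (A_52_P13389, NM_026793, chromosome 10, 4741912 to 4741971 of mm7) is given on the minus strand, while the RefSeq table has the gene on the plus strand of GRCm38.p6, the only such mismatch among the 8 members in that table. Whether the probe reads the Myct1 mRNA was not tested. It read 33.6, 33.5, 24.8 and 77.9 in STMN1-/- MEFs, against 185, 497, 437 and 466 in STMN1+/+ MEFs. The STMN1-/- signal was well above background on 0 arrays and the STMN1+/+ signal on 3. The lowest signals that were well above background lay between 92.8 and 140 per array and genotype after scaling of the arrays to each other (Aquantile). Taken against these floors, Myct1 was at least 3.01-fold lower in STMN1-/- MEFs (adjusted p = 0.00439, limma), with measured means of 38.6 in STMN1-/- MEFs and 372 in STMN1+/+ MEFs. The p rests on STMN1-/- signals at background, and with normexp the log2 ratio was -0.47 (adjusted p = 0.0831, limma), a smaller change than the bound. Such a bound averages the brighter genotype over 4 arrays and sets the dimmer one at its floor.

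Of the granule proteins, Selp was lower on its brighter probe. This call was lost with normexp (log2 ratio -0.18, adjusted p = 0.0968, limma) and with the methods' t-test (adjusted p = 0.0583). The study gives P-selectin as higher in STMN1-/- cells, both in its array column and by qRT-PCR, where it is among the most extreme changes. The array signals read here through the dye labels have the opposite sign, and the reason was not tested. The brighter probe (A_51_P211854, NM_011347, chromosome 1, 164112910 to 164112969 of mm7, 10 spots per array) read 302, 238, 279 and 336 in STMN1-/- MEFs, against 521, 476, 390 and 490 in STMN1+/+ MEFs. The genotypes did not overlap, as in 21.4% of all tested probes. The log2 ratio was -0.70 ± 0.10 (SE, limma, 4 arrays, adjusted p = 0.0114), 1.63-fold lower in STMN1-/- MEFs.

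All 37 usable Selp spots were lower in STMN1-/- MEFs, with log2 ratios of single spots between -1.84 and -0.02. The SD over the spots of an array was 0.15 to 0.41, and the orientations averaged -0.89 with STMN1-/- RNA in Cy3 and -0.51 with it in Cy5. The second Selp probe (A_52_P57843, the same transcript, 8.10 kb away at 164104808 to 164104867) read 67.7, 93.5, 26.4 and 32.2 in STMN1-/- MEFs, against 164, 131, 71.1 and 140 in STMN1+/+ MEFs. The ratio was below 0 on 4 of 4 arrays, while signals overlapped across arrays.

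In STMN1-/- MEFs this second probe was well above background on 0 arrays and in STMN1+/+ MEFs on 2. Its adjusted p was 0.0245 (limma), but it gives no bounded fold, since the STMN1+/+ mean of 121 lies near the floor, and it adds no support to the brighter probe. Leaving out array 1, 3 or 4 ended its call, with adjusted p-values of 0.0786, 0.0846 and 0.0561. Within an array the 2 Selp probes differed by 0.62 on the log2 scale, brighter minus dimmer (range -0.52 to 1.58, 4 arrays), and an exact two-sided sign-flip permutation test gave p = 0.375. With 4 arrays no p can be under 2 of the 16 sign patterns, so this test cannot pass the threshold.

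**Figure D3:**
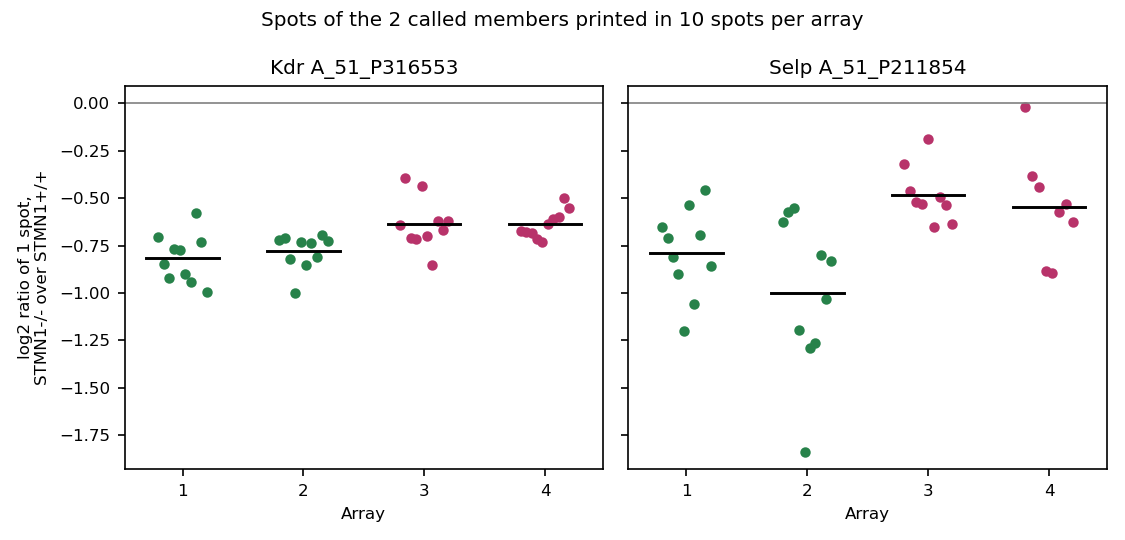
The log2 ratio of STMN1-/- over STMN1+/+ of each usable spot (points) and their mean (line) on arrays 1 to 4, for the Kdr and Selp probes printed in 10 spots, green for STMN1-/- in Cy3 and pink for STMN1-/- in Cy5. All 40 Kdr spots and all 37 Selp spots lie below 0, and the Selp spots scatter more widely.

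Vwf, the clotting protein that endothelial cells share with platelets, was up-regulated on the probe measured in both genotypes. The brighter probe (A_51_P103397, DQ355288, chromosome 6, 125709328 to 125709387 of mm7) read 391, 474, 355 and 466 in STMN1-/- MEFs, against 198, 250, 225 and 235 in STMN1+/+ MEFs. The lowest STMN1-/- value lay above the highest STMN1+/+ value, and 21.4% of all tested probes likewise had no overlap between genotypes. The log2 ratio was 0.89 ± 0.08 (SE, limma, 4 arrays, adjusted p = 0.00294), 1.85-fold higher in STMN1-/- MEFs.

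The probe to the Vwf RefSeq transcript (A_51_P103406, NM_011708), 0.693 kb away at 125708635 to 125708694, read 99.0, 131, 133 and 110 in STMN1-/- MEFs, against 33.5, 64.7, 42.8 and 66.2 in STMN1+/+ MEFs. It was well above background in STMN1-/- MEFs on 1 array and in STMN1+/+ MEFs on 0. Its adjusted p was 0.0101 (limma), and it was at least 1.07-fold higher in STMN1-/- MEFs, with no bound above 1 once array 2 was left out, from scaled means of 117 in STMN1-/- MEFs and 49.8 in STMN1+/+ MEFs. This probe adds no support to the brighter one. The 2 tested Vwf probes differed by -0.35 on the log2 scale, brighter minus dimmer (range -0.98 to 0.25, 4 arrays, exact two-sided sign-flip permutation test, p = 0.375). The last Vwf probe (A_51_P206886, AK044921, a cDNA clone, 125627345 to 125627404) lies 82.0 and 81.3 kb from these and was at background, at 23.9 to 34.0 in STMN1-/- MEFs and 21.7 to 42.1 in STMN1+/+ MEFs.

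The dimmer probes of Selp and Vwf are shown because each cleared background in 1 genotype only (5′ to 3′, as printed on the array, with no letters in capitals).
Selp A_52_P57843: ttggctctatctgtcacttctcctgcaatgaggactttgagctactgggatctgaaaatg
Vwf A_51_P103406: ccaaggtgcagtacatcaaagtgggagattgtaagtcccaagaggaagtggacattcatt

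Endothelial promoters are known for sites of ETS factors, whose core is GGAA. In the RefSeq promoter table (GRCm38.p6), 8 of the 10 genes have an entry, and Vwf and Pecam1 have none. The letters GGAA were searched on both strands, where they read GGAA or TTCC and cannot overlap, in the 250 bases before the start. Myct1 held 8 matches, Tie1 7, Selp 6, Cd34 5, Kdr and Emcn 4 each, Eng 3 and Tek 2. Among all 32851 promoters of this length 93.4% held at least 1 match and the median was 3. The share that held at least as many was 1.45% for Myct1, 3.82% for Tie1, 8.69% for Selp and 18% for Cd34. It was 33.4% for Kdr or Emcn, 54.7% for Eng and 76.8% for Tek. A match is not a bound site. The upstream stretches of Myct1 and Cd34, which were lower, and of Emcn, which was higher, are shown 5′ to 3′ with the matches in capitals, from chr10:5593478-5593727, chr1:194938571-194938820 and chr3:137340828-137341077 of GRCm38.p6, plus strand.
Myct1: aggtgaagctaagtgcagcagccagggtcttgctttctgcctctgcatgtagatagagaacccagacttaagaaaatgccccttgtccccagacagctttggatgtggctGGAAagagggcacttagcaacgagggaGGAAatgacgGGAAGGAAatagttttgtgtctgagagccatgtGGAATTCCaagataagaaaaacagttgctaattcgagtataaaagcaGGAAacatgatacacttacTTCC
Cd34: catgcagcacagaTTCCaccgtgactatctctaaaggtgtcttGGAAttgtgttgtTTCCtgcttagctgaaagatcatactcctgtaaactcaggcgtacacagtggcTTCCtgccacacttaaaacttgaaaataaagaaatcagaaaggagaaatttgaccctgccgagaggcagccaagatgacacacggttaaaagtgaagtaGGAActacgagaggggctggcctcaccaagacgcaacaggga
Emcn: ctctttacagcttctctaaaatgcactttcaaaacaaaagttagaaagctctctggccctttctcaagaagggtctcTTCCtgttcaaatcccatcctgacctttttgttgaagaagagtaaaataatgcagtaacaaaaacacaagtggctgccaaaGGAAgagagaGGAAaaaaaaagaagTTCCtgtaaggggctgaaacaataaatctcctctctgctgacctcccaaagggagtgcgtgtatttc

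The ligands and partner receptors of the member genes were mostly measured. Of 20 genes 17 were tested, of which 4 were higher, 2 lower and 11 did not pass, with a median log2 ratio of 0.13, beside 11.3% higher and 11.2% lower over all tested probes. Leaving out any 1 array left 2 higher and 0 to 1 lower. Flt1 (VEGF receptor 1), a high-affinity VEGF receptor that holds VEGF-A away from Kdr, was up-regulated on each of its 3 measured probes. Their log2 ratios in STMN1-/- over STMN1+/+ MEFs were 0.98 ± 0.10, 0.92 ± 0.10 and 0.79 ± 0.06 (SE, limma, 4 arrays, adjusted p = 0.00371, 0.00518 and 0.00177). Kdr, with which it shares ligands, was lower on the same arrays.

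Vegfa, the main ligand of Kdr, had log2 ratios of 0.45 ± 0.12, 0.39 ± 0.06 and 0.36 ± 0.06 on its 3 probes (SE, limma, 4 arrays), of which the brightest did not pass (adjusted p = 0.0516) and the other two did (0.0108 and 0.0165). Vegfb and Tgfb1, ligands of Flt1 and of the TGF-β receptors, were called higher at log2 ratios of 0.30 and 0.43 (adjusted p = 0.0433 and 0.00827, limma). Tgfbr2 was called higher at 0.38 (adjusted p = 0.0367, limma). Vegfd and its receptor Flt4 were called lower at -0.27 and -0.37 (adjusted p = 0.0293 and 0.0481, limma), with Flt4 at -0.08 on array 1. Of the Tek ligands, Angpt1 was not well above background on either of its 2 probes, and Angpt2 had a log2 ratio of 0.04 ± 0.06 (adjusted p = 0.644, limma) at mean signals of 26478 in STMN1-/- MEFs and 25693 in STMN1+/+ MEFs.

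Of 32 other endothelial genes 27 were tested, of which 4 were higher, 9 lower and 14 did not pass, with a median log2 ratio of -0.09. Over all tested probes 11.3% were higher and 11.2% lower. Leaving out any 1 array left 1 to 2 higher and 6 to 7 lower, and normexp left 0 and 5. Cdh5 (VE-cadherin), the junctional cadherin of endothelium, had 2 probes, neither of them well above background. Esm1 (endocan), a secreted proteoglycan, fell by 2.10, Edn1 (endothelin-1), a vasoconstrictor peptide, by 1.30 and Calcrl, a receptor for adrenomedullin, by 0.88 on the log2 scale. Mmrn1 was also called lower, with STMN1-/- signals well above background on 0 arrays and STMN1+/+ signals on 1, and gave no bounded fold. Clec14a was called higher, with STMN1-/- signals well above background on 3 arrays and STMN1+/+ signals on 0, at least 1.61-fold higher in STMN1-/- MEFs. Mmrn1 and Clec14a entered the test only through the genotype in which they were high, which favours a difference. Both are included in the counts above. Ecscr, Egfl7 and Ramp2 were called higher in the fit of 4 arrays, at log2 ratios of 0.42, 0.26 and 0.25.

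Of 23 transcription factors used by endothelial cells 19 were tested, with 4 higher, 6 lower and 9 that did not pass. The share over all tested probes was 11.3% higher and 11.2% lower. Without array 1 the lower count was 3, and normexp left 1 higher and 3 lower. Erg, an ETS factor of endothelium, rose by 0.96 on the log2 scale, Hey1 by 0.83 and Ets2 by 0.46, while Sox7 fell by 1.16, Gata2 by 0.83, Foxc2 by 0.71 and Foxc1 by 0.62. Hey2, a Notch target, was called higher, at least 1.94-fold higher in STMN1-/- MEFs, with STMN1+/+ signals well above background on 0 arrays. Hey2 is included in the count of higher genes, but it entered the test through its STMN1-/- signals only, which favours a difference. Tal1, Lmo2, Etv2 and Sox18, which mark early endothelial and blood-forming cells, were not well above background on any array. Lyl1 and Fli1, on the same list, were well above it on every array in both genotypes and did not pass. Erg and Gata2 were also well above it throughout.

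**Figure D4:**
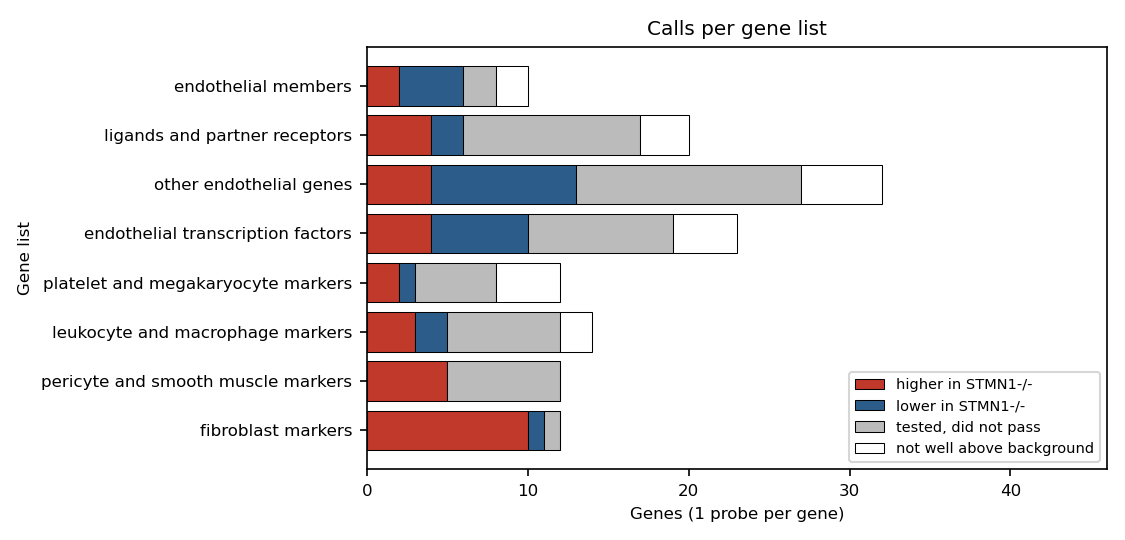
Number of genes per list (1 probe per gene) that were called higher in STMN1-/- (red), called lower (blue), tested without passing (grey) or not well above background (white). The member genes hold 2 higher, 4 lower, 2 that did not pass and 2 not well above background.

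Markers of other cells that a MEF culture could hold were read in the same way, beside 11.3% higher and 11.2% lower over all tested probes. Platelet and megakaryocyte markers, which share Selp and Vwf with endothelium, had 3 of 12 genes well above background on every array in both genotypes. Gp9 and Gp1ba were not above it on any array. Itga2b was above it on 2 arrays in STMN1-/- MEFs and 3 in STMN1+/+ MEFs, Gp6 on 2 and 4, and Gp5 on 1 and 2, and none of these passed the test. Ppbp fell by 0.77, and Pf4 and Gp1bb rose by 0.63 and 0.51, with 0 to 3 genes higher when an array was left out and 0 with normexp. The list's summed signal was 7753 to 9310 in STMN1-/- MEFs and 11146 to 13039 in STMN1+/+ MEFs. Most of it was Ppbp, which averaged 5834 in STMN1-/- MEFs and 9957 in STMN1+/+ MEFs. Leukocyte and macrophage markers had 12 of 14 genes above background throughout, with 3 higher and 2 lower (1 to 2 and 1 without any 1 array, and 0 higher with normexp). Aif1 rose by 1.00, Coro1a by 0.36 and Csf1r by 0.28 on the log2 scale, while Cd14 fell by 0.48 and Cd68 by 0.28. Itgam and Spi1 were not above background on any array. The summed signal of this list was 135798 to 158197 in STMN1-/- MEFs and 161511 to 183190 in STMN1+/+ MEFs. Most of it was Lyz2, which averaged 129200 in STMN1-/- MEFs and 151406 in STMN1+/+ MEFs and did not pass.

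Apart from Vim, the mural and fibroblast markers that passed the test were higher in STMN1-/- MEFs. Over all tested probes 11.3% were higher and 11.2% lower. Of 12 pericyte and smooth muscle markers 5 were higher and 0 lower, among them Kcnj8, which rose by 1.58, Pdgfrb by 1.04, Rgs5 by 0.76 and Notch3 by 0.66. Their summed signal was 3297788 to 3899592 in STMN1-/- MEFs and 2586949 to 3006243 in STMN1+/+ MEFs. Acta2, which did not pass, alone averaged 1649664 in STMN1-/- MEFs and 1238016 in STMN1+/+ MEFs. Of 12 fibroblast markers 10 were higher and 1, Vim, was lower (0 lower without any 1 array), with a median log2 ratio of 1.07, and Lum, Postn, Fap and Col1a1 rose by 2.50, 1.85, 1.45 and 1.28. For Postn the study also gives a rise on its arrays, but a fall in STMN1-/- cells by qRT-PCR. The summed fibroblast signal was 4183366 to 6635864 in STMN1-/- MEFs and 3783272 to 4404131 in STMN1+/+ MEFs, and these ranges overlapped. Within it Col1a1 averaged 871740 in STMN1-/- MEFs and 358145 in STMN1+/+ MEFs. S100a4, which did not pass, averaged 1342196 and 2050402 in the same order. Its log2 ratios were -1.54 and -1.38 with STMN1-/- RNA in Cy3, but 0.08 and 0.38 with it in Cy5. For the 10 endothelial genes the sum was 17446 to 18757 in STMN1-/- MEFs and 29422 to 33109 in STMN1+/+ MEFs. Such sums add signals of different probes, and Cd34 alone averaged 9497 in STMN1-/- MEFs and 21045 in STMN1+/+ MEFs. The part of these other cell types in the endothelial results was not tested.

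**Figure D5:**
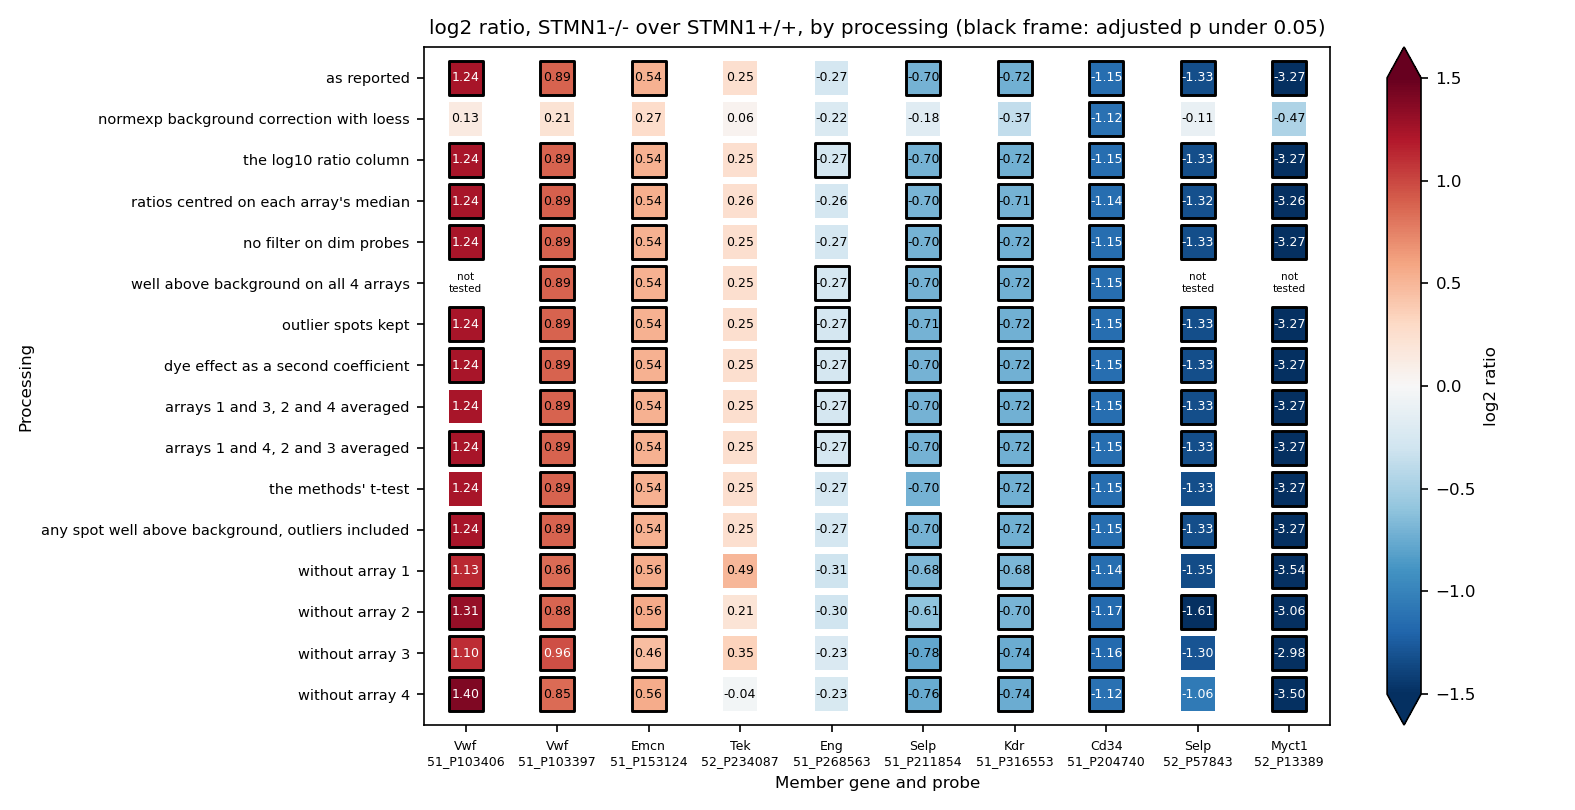
The log2 ratio of STMN1-/- over STMN1+/+ of the 10 tested member probes (columns) under each processing (rows), with a black frame where the adjusted p was under 0.05 and the colour scale ending at ±1.5. Cd34 is framed in every row, Eng in 6 of the alternatives, and with normexp background correction 1 of the 10 probes is framed.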

How the data were processed

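Intensity values were made by the authors, per the file headers, in Feature Extraction 9.5.3.1 (Agilent), with background subtraction, LOWESS dye normalization and surrogates for dim spots. The same deposited files hold a log10 ratio of Cy5 to Cy3. The authors' lists of selected probes were not used. Control spots and outlier spots were removed, and the remaining spots of each probe were averaged on the log2 scale. A probe was well above background on an array where over 0.5 of its usable spots were.

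Of 41174 probes 27655 met this in either channel on at least 1 array, and 27579 of them, with at least 2 usable arrays, were tested. Log2 ratios, STMN1-/- over STMN1+/+, were turned by the dye labels, and limma 3.58.1 (R 4.3.3) tested whether their mean differs from 0 (two-sided, Benjamini-Hochberg, threshold 0.05), checked on simulated data, with the packages data.table (1.17.8) and jsonlite (2.0.0). Array ratios correlated at 0.69 and 0.70 across probes in the same dye orientation and at 0.45 to 0.49 in opposite ones. All arrays share 1 slide and 1 scan time, so no block could be fitted. A listed gene was represented by its brightest tested probe, and list genes were matched by RefSeq accession, symbol or synonym. Probe coordinates are those of mm7 in the array files. Figures were made in Python 3.11.15 (numpy 2.4.6, pandas 2.3.3, matplotlib 3.10.9).

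The member genes and lists were chosen with earlier results of these data known. The text names all members and, from each other list, up to 4 of the largest called changes each way, with Cdh5, Flt1, Angpt1, Angpt2, Vegfa and Stmn1. Other listed genes are named only as not above background or as not passing the test, and were chosen after their values were seen. Alternatives were outlier spots kept, a dye coefficient, normexp correction (offset of 50) followed by loess, median centring, the log10 ratios as deposited, dim probes all kept, signal required on all 4 arrays, both pairings of opposite arrays, the methods' t-test, each array left out and the median over a gene's probes. A filter that counts any spot was added after seeing the data.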

Additional observations from a re-analysis of the deposited data

Results flagged for a closer look

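The Emcn ratio on array 3 stood apart from the other arrays. Its log2 ratio of STMN1-/- over STMN1+/+ was 0.76 there, and the gap to the nearest array was 0.949 of the whole range, above the critical value for 4 samples. Without array 3 the log2 ratio was 0.46 and the call held. About 1 in 20 groups is marked by chance, and 10 member probes were examined.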

How the results depend on the processing

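Signal over background limits these results: 6 of the 16 endothelial probes gave no ratio, and 3 of the 8 called probes were above background in 1 genotype only. Over all probes, 3105 were higher and 3102 lower. These counts were 998 and 1150 with normexp background correction, 1970 and 1871 with no filter on dim probes, 5345 and 5345 with a coefficient for the dye, and 1976 and 1888 with the methods' t-test (Benjamini-Hochberg). Leaving out an array gave 1464 to 1659 higher and 1360 to 1550 lower.

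Of the endothelial probes, 3 were higher and 5 lower. With normexp these were 0 and 1, and with the methods' t-test 3 were lower. With normexp the log2 ratio of Kdr was -0.37 (adjusted p = 0.0512), of Emcn 0.27 (0.0809), of Vwf 0.21 and 0.13 (0.0892 and 0.188), of Selp -0.18 and -0.11 (0.0968 and 0.217) and of Myct1 -0.47 (0.0831), and the cause was not tested. The methods' t-test ended the calls of both Selp probes (0.0583 and 0.11) and of the dimmer Vwf probe (0.0623), which also lost its call when arrays 1 and 3, and 2 and 4, were averaged (0.0514). Requiring signal on all 4 arrays kept 5 of the 8 called probes in the test, with their calls, and Eng joined them (0.0361). Eng passed under 6 alternatives. Counts for the other gene lists ran between 2 and 7 higher and 0 and 3 lower for ligands and partner receptors, 0 and 5 higher and 5 and 11 lower for other endothelial genes, and 1 and 4 higher and 2 and 7 lower for transcription factors, with all 4 arrays. Without array 4 the sign of Tek turned, at a log2 ratio of -0.035 (range over the arrays left out, -0.04 to 0.49). Leaving out an array gave 3 higher and 4 to 5 lower endothelial probes, the lost one being the dimmer Selp probe. The bound for Myct1 was 2.67 to 3.96 fold and that for the dimmer Vwf probe 1.16 fold at most, and 0.977, which is no bound, without array 2. No called endothelial probe changed direction under any alternative run. Each log2 ratio pairs both genotypes within 1 array, so the test against 0 is already a paired one, and a further block by replicate number could not be fitted to this single group.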
